A study of Mus musculus with 9 samples.

Results

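The D-type cyclins, their kinases Cdk4 and Cdk6, and the Cdk inhibitors of the Cip/Kip and Ink4 families were followed across 3 sorted cell populations of the mouse mammary gland. The set comprised 10 genes (listed on the array as CCND1, CCND2, CCND3, CDK4, CDK6, CDKN1A, CDKN1B, CDKN1C, CDKN2B and CDKN2C) and every array probe carrying those names, 23 of 45281 probes. Of these, 18 probes of 9 genes were detected on at least 3 of the 9 arrays and were tested among 17712 probes. The 5 others are 1 probe of Ccnd2, 1 of Ccnd3, 2 of Cdkn1b and the only probe of Cdk6. Lgr5+ basal, Lgr5- basal and luminal cells were each measured on 3 arrays. All 3 groups came from 10-week-old virgin C57BL/6 mice of the Lgr5-GFP-IRES-CreERT2 genotype, an allele that places GFP and an inducible Cre under control of the Lgr5 locus, and were obtained by flow sorting. The labels give the Lgr5 state of the luminal cells as wild-type and number the samples by pool, 1 to 3, and pool 3 was hybridized on a second BeadChip. Values are normalized log2 intensities, and a probe's level is compared only with its own level in another group.

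D-type cyclins bind and activate Cdk4 and Cdk6, and these complexes phosphorylate the retinoblastoma protein, which frees E2F factors to switch on genes of DNA synthesis. Ink4 inhibitors bind Cdk4 and Cdk6 alone and keep the cyclin away, while Cip/Kip inhibitors bind cyclin-Cdk complexes, chiefly those of Cdk2. In the mouse mammary gland cyclin D1 is known for its need in lobuloalveolar growth during pregnancy.

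Promoter sequences are shown for Cdkn1a and Cdkn2b, inhibitors whose levels differed between basal and luminal cells in opposite directions. RefSeq promoter entries on GRCm38.p6 matched 7 of the 10 genes, with 10 windows, and the 250 bases before each start are given 5′ to 3′ on the gene's strand. Cdkn1a had windows at chr17:29090729-29090978 (+) and chr17:29093519-29093768 (+), and Cdkn2b at chr4:89311033-89311282 (-). Capitals mark ACATGT, the core letters of p53 elements, where it occurs at 2 places with 4 bases between them, the GC box GGGCGG in the second Cdkn1a window, and the cAMP response element TGACGTCA in Cdkn2b.
Cdkn1a, upstream start: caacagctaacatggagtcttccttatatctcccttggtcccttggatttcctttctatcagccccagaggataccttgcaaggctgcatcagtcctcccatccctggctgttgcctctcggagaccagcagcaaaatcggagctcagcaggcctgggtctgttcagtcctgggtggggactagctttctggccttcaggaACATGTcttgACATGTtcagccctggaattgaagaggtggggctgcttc
Cdkn1a, downstream start: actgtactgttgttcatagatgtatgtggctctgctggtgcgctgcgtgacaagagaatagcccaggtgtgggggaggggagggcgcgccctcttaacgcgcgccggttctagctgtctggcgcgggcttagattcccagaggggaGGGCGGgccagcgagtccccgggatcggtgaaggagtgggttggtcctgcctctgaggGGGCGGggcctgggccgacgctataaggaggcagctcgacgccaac
Cdkn2b: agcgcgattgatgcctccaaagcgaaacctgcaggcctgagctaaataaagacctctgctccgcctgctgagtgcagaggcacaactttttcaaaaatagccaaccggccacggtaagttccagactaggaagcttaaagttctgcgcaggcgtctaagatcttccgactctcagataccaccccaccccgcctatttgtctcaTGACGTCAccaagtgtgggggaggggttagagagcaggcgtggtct
Each motif was searched on both strands in all 32851 promoter windows of the same length. The pair of ACATGT cores with 4 bases between them was in 4 windows (0.0122%), and ACATGT alone in 1503 windows (4.58%). This spelling was chosen after an earlier search, with the p53 consensus element by name and a spacer of up to 13 bases, had matched 21 windows (0.0639%), among them the same Cdkn1a window at a partly different place. The letters around the second core depart from that consensus. As the pair was spelled after the sequences were read, its match in the Cdkn1a window was fixed in advance, and 0.0122% is no measure of its rarity. GGGCGG was in 32.7% of windows, and among the other genes it occurred in the windows of Cdkn2c, Cdkn1b, Cdk4 and Ccnd3. TGACGTCA was in 508 windows (1.55%) and, among the 10 windows of the set, in that of Cdkn2b alone. A match is a description of the letters and shows no binding.

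Per array, 15235 to 17423 probes were detected, with a mean raw intensity of 428 to 654. The mean log2 level of 7 basal markers was 12.6 to 12.82 on Lgr5+ basal arrays, 12.75 to 12.82 on Lgr5- basal arrays and 7.09 to 9.22 on luminal arrays, and all 7 were higher in both basal groups than in luminal cells. Luminal replicate 2 stood apart with the 9.22, against 7.11 and 7.09 on the other luminal arrays. The 5 measured luminal markers averaged 9.13 to 9.63, 9.12 to 9.31 and 12.5 to 12.68 in Lgr5+ basal, Lgr5- basal and luminal cells. Of 4 endothelial markers, with Kdr at background on all arrays, the mean was 6.32 to 7.89 in Lgr5+ basal cells, highest in replicate 2, 6.91 to 7.09 in Lgr5- basal cells and 5.6 to 6.27 in luminal cells. Fibroblast markers averaged 6.84 to 7.26, 6.91 to 7.18 and 5.95 to 6.17 in the same order. The 4 haematopoietic markers averaged 5.9 to 6.42, 6 to 6.13 and 5.09 to 5.67. Ptprc, the pan-haematopoietic marker, was at background on every array, while Cd3e, Cd68 and Laptm5 were detected on all basal arrays. Against luminal cells, 3 of 4 fibroblast, 2 of 3 tested endothelial and 2 of 3 tested haematopoietic markers were called higher in Lgr5+ basal cells, and 2, 2 and 1 in Lgr5- basal cells. Of all tested probes, 22.8% were called higher in Lgr5+ basal cells and 20.7% in Lgr5- basal cells. The part of these markers in the differences from luminal cells was not tested. In such bulk samples, fewer cells expressing a gene and less RNA of it per cell cannot be told apart.

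Lgr5+ basal cells were set against Lgr5- basal cells to ask how the set varies within the basal layer. Ccnd2 was the single gene of the set with a probe that passed the test, 2.41-fold lower in Lgr5+ basal cells, and no probe was higher. That is 1 of 18 probes, against 0.965% of all tested probes called in either direction, 0.474% called higher and 0.491% called lower. Levels did not overlap between the basal groups for 6 of 18 probes, all lower in Lgr5+ basal cells (3 of Ccnd2 and 1 each of Cdk4, Cdkn2b and Cdkn2c), against 21.6% of all probes, 10.5% higher and 11.1% lower. Among the 6 probes, that of Cdkn2b was detected on 0 Lgr5+ and 1 Lgr5- basal arrays, and that of Cdkn2c on 1 Lgr5+ basal array. For both, the order of the basal groups rests on values near background. The median log2 difference was -0.32 over the 18 probes and 0 over all tested probes.

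Against luminal cells the set split by gene. In Lgr5+ basal cells Ccnd2, Cdkn1a and Cdkn1c were higher and Ccnd1, Cdkn1b, Cdkn2b and a probe of Cdkn2c were lower, in all 13 of 18 probes and 7 of 9 genes, with 7 probes higher and 6 lower. Of all tested probes 48.0% were called in this comparison, 22.8% higher and 25.2% lower. Groups did not overlap for 12 of the 18 probes, 6 higher and 6 lower, against 54.0% of all probes, 25.5% higher and 28.5% lower. In Lgr5- basal cells the same contrast called 11 of 18 probes, 7 higher (Ccnd2, Cdkn1a, Cdkn1c) and 4 lower (Ccnd1, Cdkn2b), against 42.6% of all probes, 20.7% higher and 21.8% lower. Groups did not overlap for 11 of the 18 probes, 7 higher and 4 lower, against 53.9% of all probes, 25.7% higher and 28.2% lower. Both contrasts use the same luminal arrays. The median over the 18 probes was -0.08 for Lgr5+ basal minus luminal and 0.12 for Lgr5- basal minus luminal, beside -0.05 and -0.04 over all tested probes.

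**Figure D1:**
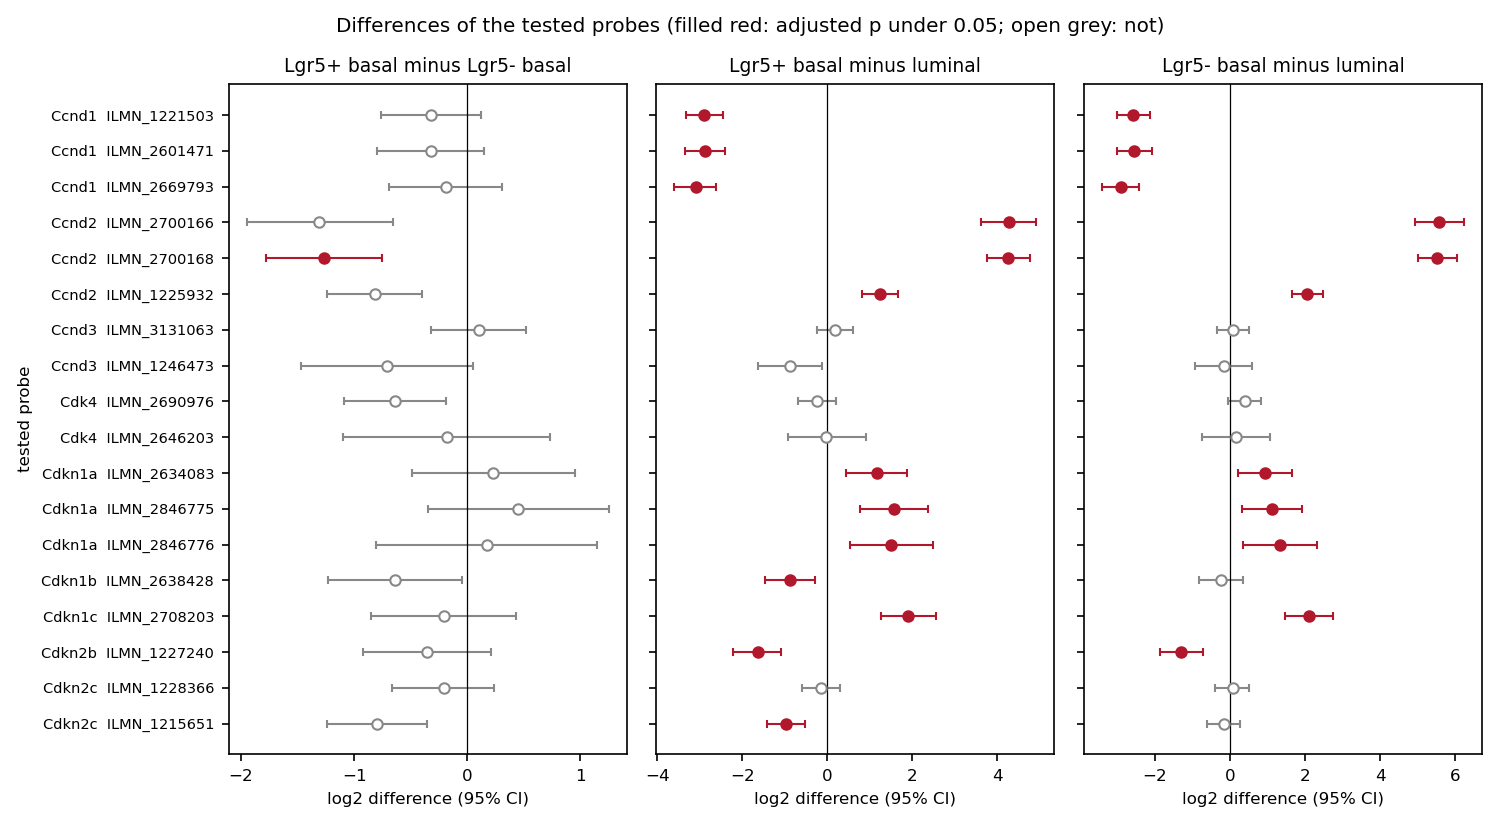
Log2 differences (horizontal axis) of the 18 tested probes (rows) in the 3 comparisons, with 95% confidence intervals from the limma fit; filled red points passed an adjusted p of 0.05. A single probe, of Ccnd2, passed between the basal groups, while Ccnd1 and Ccnd2 lay on opposite sides of 0 against luminal cells.

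Ccnd1, the gene of cyclin D1, was far lower in basal than in luminal cells. Its brightest probe, ILMN_1221503, had 9.98, 10.52 and 10.56 in Lgr5+ basal cells, 10.71, 10.49 and 10.82 in Lgr5- basal cells and 13.37, 13.09 and 13.29 in luminal cells. The luminal arrays lay above all basal arrays, while the 2 basal groups overlapped. The level was 7.44-fold lower in Lgr5+ basal than in luminal cells (log2 difference -2.9, limma adjusted p = 5.94e-07) and 5.96-fold lower in Lgr5- basal than in luminal cells (-2.58, adjusted p = 1.43e-06). Lgr5+ minus Lgr5- basal gave -0.32 (95% interval -0.76 to 0.12, adjusted p = 0.491). The other probes, ILMN_2601471 and ILMN_2669793, were 7.31-fold and 8.6-fold lower in Lgr5+ basal than in luminal cells, and 5.84-fold and 7.53-fold lower in Lgr5- basal than in luminal cells. On both, basal and luminal arrays did not overlap.

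Ccnd2, the gene of cyclin D2, ran the other way and also differed within the basal layer. Probe ILMN_2700166, the brightest, had 9.59, 9.38 and 9.69 in Lgr5+ basal cells, 11.18, 10.41 and 10.98 in Lgr5- basal cells and 4.6, 5.54 and 5.7 in luminal cells. Probe ILMN_2700168 had 8.95, 8.9 and 9.14 in Lgr5+ basal cells, 10.57, 9.75 and 10.48 in Lgr5- basal cells and 4.49, 4.79 and 4.94 in luminal cells. The 3 groups did not overlap on either probe, with Lgr5- basal cells highest and luminal cells lowest. Luminal cells were at background on ILMN_2700168, detected on 0 of 3 arrays, and on ILMN_2700166 they were detected on 1 of 3.

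**Figure D2:**
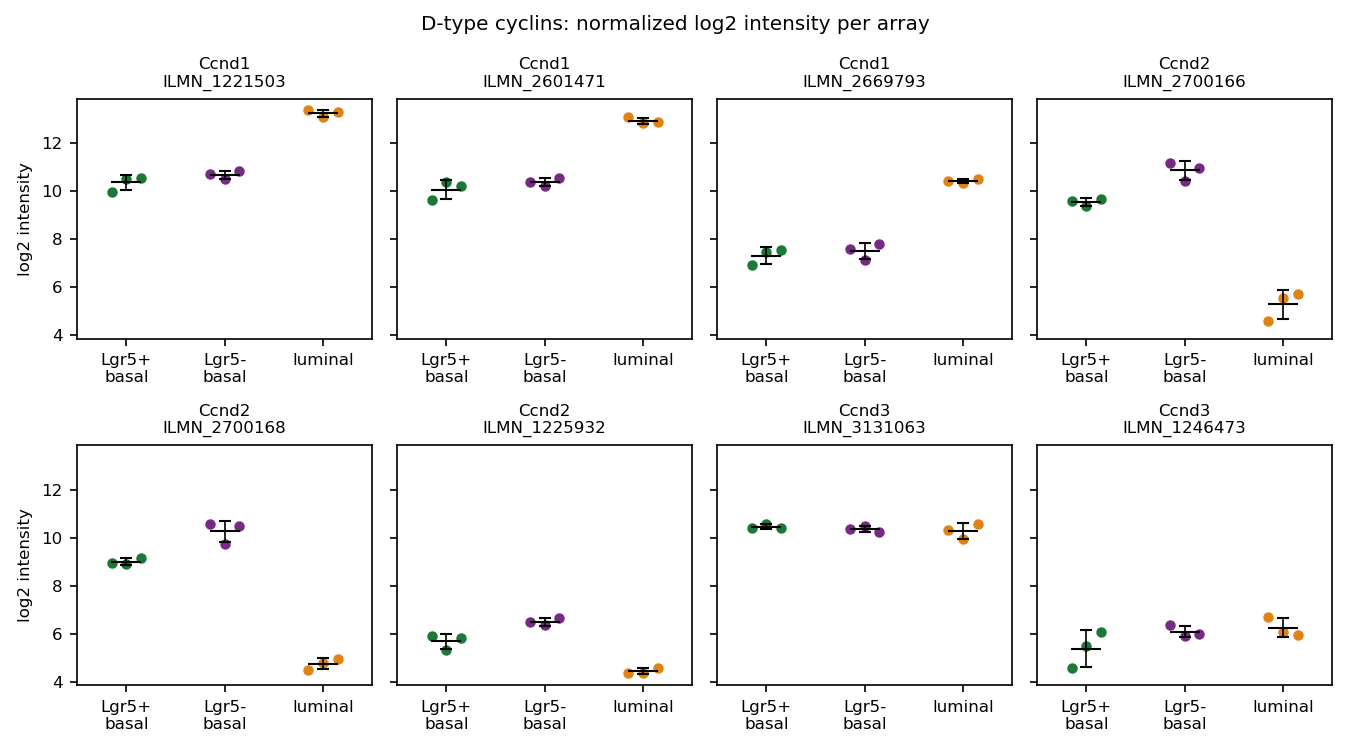
Normalized log2 intensity (vertical axis) of the tested D cyclin probes on each array, with group mean and SD (n = 3 arrays per group). Luminal arrays were highest for Ccnd1 and lowest for Ccnd2, and Lgr5+ basal arrays lay below Lgr5- basal arrays on all 3 tested Ccnd2 probes.

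Between the basal groups, ILMN_2700168 averaged 9 ± 0.13 in Lgr5+ and 10.26 ± 0.45 in Lgr5- basal cells (SD, n = 3 each), which differ by -1.27 on the log2 scale (SE 0.232, adjusted p = 0.0321 by limma). It was lower in Lgr5+ basal cells in all 3 pools, by log2 differences of -1.62, -0.84 and -1.34. ILMN_2700166 had a difference of similar size, -1.31 (SE 0.294), and ILMN_1225932, a dimmer probe, of -0.82 (SE 0.191), but neither passed (adjusted p = 0.0757 and 0.0832). Without background correction the difference of ILMN_1225932 was -0.27. ILMN_1225932 stood at 5.88, 5.31 and 5.8 in Lgr5+ basal cells, where 2 of 3 arrays detected it, at 6.48, 6.34 and 6.65 in Lgr5- basal cells and at 4.35, 4.37 and 4.56 in luminal cells. The call on ILMN_2700168 held in 12 of 20 other settings. It was lost without Lgr5+ basal replicate 1 or 2, Lgr5- basal replicate 1 or 3, or luminal replicate 1 or 2, with adjusted p of 0.0504 to 0.148 and log2 differences of -1.27 to -1.11. Lgr5+ basal replicate 2, the array with the highest endothelial marker level, is among these, and without it the difference was -1.22 (adjusted p = 0.128). Cd3e, a T cell marker, was also lower in Lgr5+ than in Lgr5- basal cells (log2 difference -0.88, limma adjusted p = 0.0384), with means of 6.49 and 7.37, while Cd68 and Laptm5 had differences of 0.34 and 0.84 and did not pass (0.608 and 0.403). The part of the marker levels in the Ccnd2 difference was not tested.

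Against luminal cells all 3 tested Ccnd2 probes were higher in both basal groups. Where a probe was at background on all luminal arrays, the fold is a lower bound, taken from the lowest signal of any detected probe. ILMN_2700168 was at least 11.1-fold higher in Lgr5+ basal cells (adjusted p = 1.41e-07) and at least 26.7-fold higher in Lgr5- basal cells (adjusted p = 3.95e-08) than in luminal cells. ILMN_2700166 was 19.3-fold higher in Lgr5+ basal cells (adjusted p = 6.34e-07) and 47.7-fold higher in Lgr5- basal cells (adjusted p = 1.16e-07) than in luminal cells. ILMN_1225932 was at least 1.1-fold and at least 1.95-fold higher (adjusted p = 0.000302 and 6.39e-06). These sizes, bounds included, hold for background-corrected values. Without background correction the log2 differences for Lgr5+ and Lgr5- basal minus luminal were 2.02 and 3.1 on ILMN_2700168, 2.33 and 3.49 on ILMN_2700166 and 0.4 and 0.67 on ILMN_1225932, and all still passed. On ILMN_2700166, detected on 1 of 3 luminal arrays, the fold is therefore uncertain. The remaining probe of the gene, ILMN_1235724, was detected on no array.

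Ccnd3, the gene of cyclin D3, had no difference that passed the test. Probe ILMN_3131063 had 10.39, 10.58 and 10.41 in Lgr5+ basal cells, 10.35, 10.5 and 10.24 in Lgr5- basal cells and 10.31, 9.95 and 10.58 in luminal cells. The 3 groups overlapped, and no comparison passed, with log2 differences of 0.1, 0.18 and 0.08 (limma adjusted p = 0.866, 0.466 and 0.777) for Lgr5+ minus Lgr5- basal, Lgr5+ basal minus luminal and Lgr5- basal minus luminal. ILMN_1246473, which the authors set aside, had 4.56, 5.47 and 6.07 in Lgr5+ basal cells, against 6.69, 6.08 and 5.96 in luminal cells, a log2 difference of -0.88 (adjusted p = 0.0557). On pools 1 and 2 alone, both on BeadChip 1, that difference was -1.37 (adjusted p = 0.0111). The probe ILMN_2661849 was detected on no array.

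Cdk4, the kinase partner of the D cyclins, did not pass in any comparison. Probe ILMN_2690976 had 9.87, 10.25 and 10.5 in Lgr5+ basal cells, 11.01, 10.96 and 10.56 in Lgr5- basal cells and 10.55, 10.49 and 10.31 in luminal cells. Lgr5+ basal arrays lay below all Lgr5- basal arrays, with log2 differences of -1.14, -0.71 and -0.06 in pools 1, 2 and 3. The log2 difference was -0.64 (SE 0.204, adjusted p = 0.175), and -0.93 (adjusted p = 0.049) on BeadChip 1 alone. Probe ILMN_2646203 had 7.31, 7.52 and 7.04 in Lgr5+ basal cells, 7.55, 7.66 and 7.2 in Lgr5- basal cells and 7.02, 8.47 and 6.43 in luminal cells, where replicate 2 was far above the other 2 arrays. Its log2 difference between Lgr5- basal and luminal cells was 0.17 (adjusted p = 0.785), and 0.75 (adjusted p = 0.0352) without luminal replicate 2. Cdk6, the other kinase, was detected on a single array, Lgr5+ basal replicate 3, and ranged from 4.45 to 5.37 over all arrays, so it was not tested.

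Cdkn1a, the gene of p21 and a target of p53, was higher in both basal groups than in luminal cells on all 3 probes. The brightest probe, ILMN_2634083, was set aside by the authors. It had 12.00, 11.69 and 10.98 in Lgr5+ basal cells, 11.73, 11.53 and 10.72 in Lgr5- basal cells and 10.67, 10.53 and 10.00 in luminal cells. Basal and luminal groups did not overlap, and in each group replicate 3 was lowest. The level was 2.24-fold higher in Lgr5+ basal cells (log2 difference 1.16, adjusted p = 0.0127) and 1.91-fold higher in Lgr5- basal cells (0.93, adjusted p = 0.0391) than in luminal cells. Within pools 1 to 3 the log2 difference was 1.33, 1.17 and 0.99 for Lgr5+ basal minus luminal, and 1.06, 1.01 and 0.73 for Lgr5- basal minus luminal.

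Probe ILMN_2846775 had 11.15, 10.75 and 9.85 in Lgr5+ basal cells, 10.48, 10.37 and 9.55 in Lgr5- basal cells and 9.51, 8.74 and 8.76 in luminal cells. It was 2.98-fold higher in Lgr5+ basal cells (adjusted p = 0.0044) and 2.18-fold higher in Lgr5- basal cells (adjusted p = 0.0282) than in luminal cells. Probe ILMN_2846776 was 2.85-fold and 2.54-fold higher (adjusted p = 0.0164 and 0.0312), although its lowest basal arrays overlapped luminal replicate 1. Between the basal groups the 3 probes differed by 0.23, 0.45 and 0.17, with adjusted p of 0.808, 0.62 and 0.91. For Lgr5- basal minus luminal, no probe passed once Lgr5- basal replicate 1 or 2 or luminal replicate 2 or 3 was left out (adjusted p of 0.069 to 0.14), nor did ILMN_2634083 without Lgr5+ basal replicate 2 (0.0531). For Lgr5+ basal minus luminal, ILMN_2846775 kept it without any single array, ILMN_2634083 lost it without Lgr5+ basal replicate 1 (0.0519), and ILMN_2846776 without Lgr5+ basal replicate 1 or 2 or luminal replicate 2 or 3 (0.0508 to 0.0663).

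**Figure D3:**
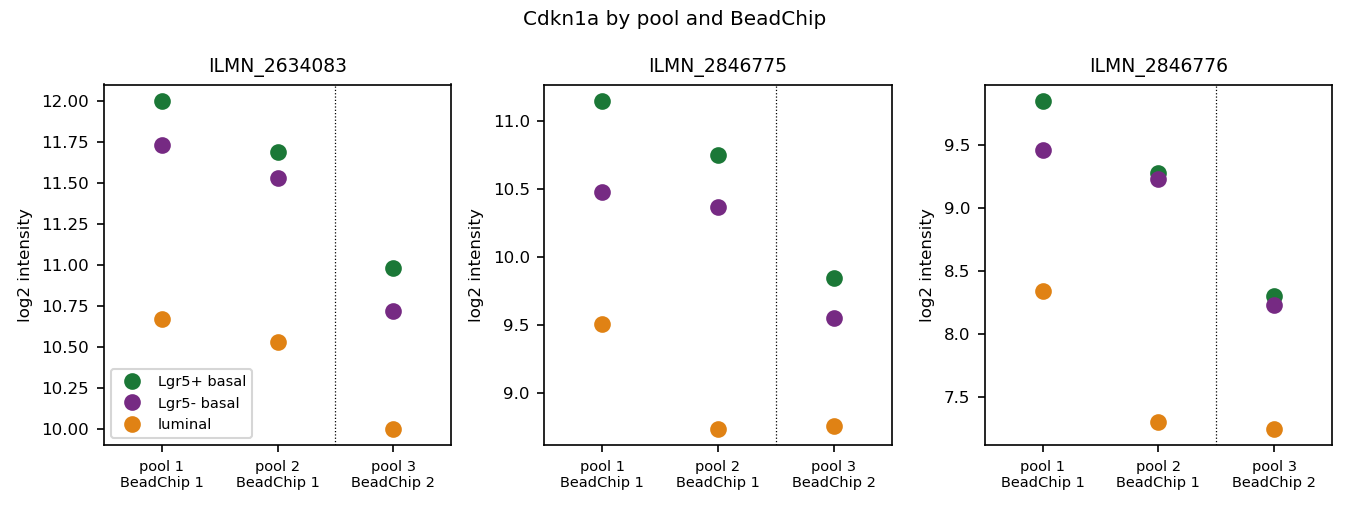
Normalized log2 intensity (vertical axes, scaled per panel) of the 3 Cdkn1a probes by pool, with the BeadChip given below; each point is an array. Within every pool both basal arrays lay above the luminal array, and the basal arrays of pool 3 were the lowest of their groups.

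The lower Cdkn1a level of pool 3 was read as the BeadChip term of a fit that kept the groups. On BeadChip 2 minus BeadChip 1 the log2 differences were -0.79, -0.78 and -0.98, and none passed (limma adjusted p = 0.0561, 0.124 and 0.109). Of all tested probes 52 (0.294%) passed for that term, none of them of the set. Pool 3 was the only pool on BeadChip 2, so pool and BeadChip cannot be told apart. With pool as a replicate block, the adjusted p of the 3 probes was 0.000253 to 0.000514 for Lgr5+ basal minus luminal and 0.000934 to 0.00221 for Lgr5- basal minus luminal.

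Cdkn1b, the gene of p27, was measured by a single detected probe, ILMN_2638428, near background. It had 5.35, 5.7 and 6.26 in Lgr5+ basal cells, where 2 of 3 arrays detected it, 6.63, 5.98 and 6.6 in Lgr5- basal cells and 6.86, 6.34 and 6.72 in luminal cells. Lgr5+ basal arrays lay below all luminal arrays and overlapped Lgr5- basal arrays. It was 1.83-fold lower in Lgr5+ basal than in luminal cells (log2 difference -0.87, adjusted p = 0.0199), a call lost without Lgr5+ basal replicate 1 or 2 or luminal replicate 1 or 3 (adjusted p of 0.0514 to 0.0776). Without background correction the log2 difference was -0.3. Between the basal groups the difference was -0.64 (adjusted p = 0.29).

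Cdkn1c, the gene of p57, was higher in both basal groups than in luminal cells. Probe ILMN_2708203 had 8.91, 8.53 and 8.25 in Lgr5+ basal cells, 9.06, 8.58 and 8.67 in Lgr5- basal cells and 6.68, 7.22 and 6.07 in luminal cells. All basal arrays lay above all luminal arrays, while the basal groups overlapped. It was 3.75-fold higher in Lgr5+ basal cells (log2 difference 1.91, adjusted p = 0.000278) and 4.33-fold higher in Lgr5- basal cells (2.11, adjusted p = 0.000137) than in luminal cells, and both calls held in all 21 other settings. Without background correction the log2 differences were 1.09 and 1.24. Lgr5+ minus Lgr5- basal gave -0.21 (adjusted p = 0.808).

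**Figure D4:**
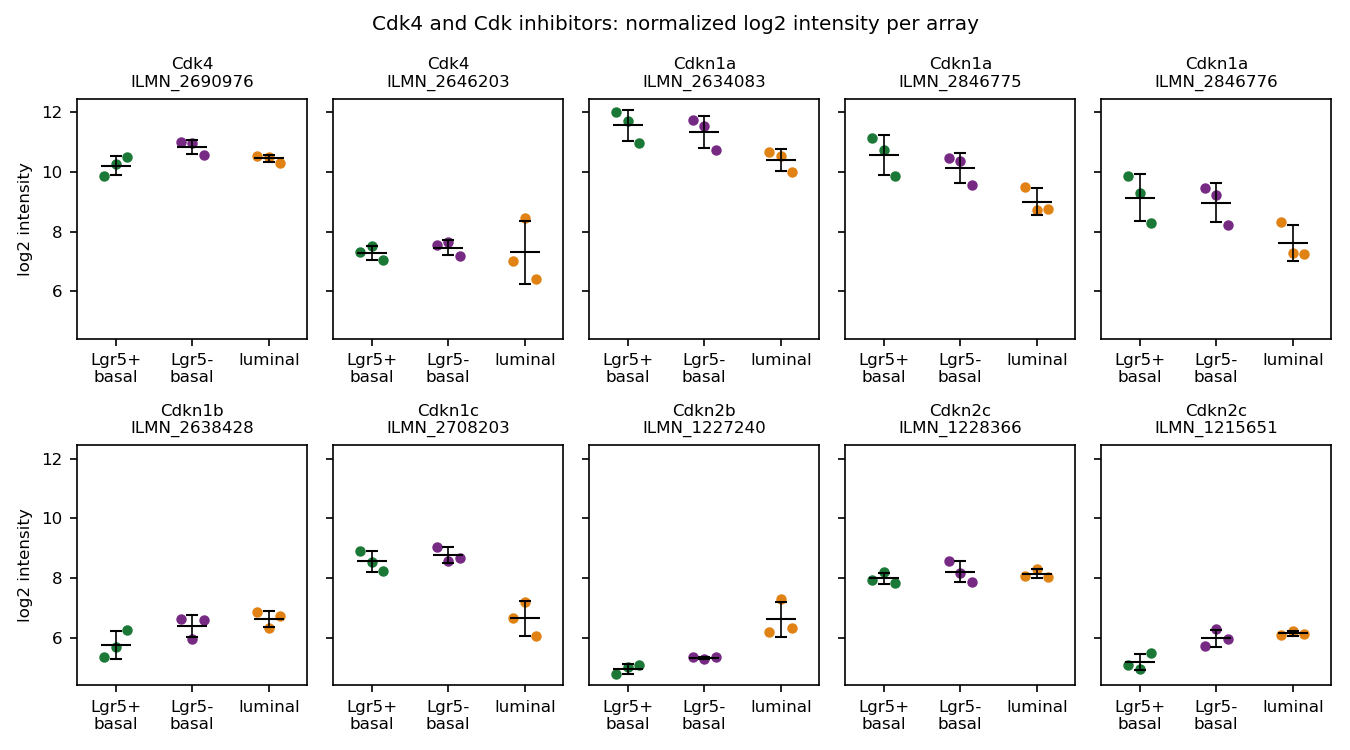
Normalized log2 intensity (vertical axis) of the tested Cdk4 and Cdk inhibitor probes on each array, with group mean and SD (n = 3 arrays per group). Cdkn1c lay higher and Cdkn2b lower in both basal groups than in luminal cells, and the 2 Cdkn2c probes differed in pattern.

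Cdkn2b, the gene of the Ink4 inhibitor p15, was the one inhibitor of the set lower in both basal groups than in luminal cells. Probe ILMN_1227240 had 4.79, 5.02 and 5.1 in Lgr5+ basal cells, 5.36, 5.28 and 5.35 in Lgr5- basal cells and 6.21, 7.29 and 6.35 in luminal cells. It was detected on 0, 1 and 3 arrays of these groups, and no groups overlapped. Luminal cells were at least 2.26-fold higher than Lgr5+ basal cells (log2 difference -1.64 for Lgr5+ basal minus luminal, adjusted p = 0.000343), and Lgr5- basal cells were 2.44-fold lower than luminal cells (-1.29, adjusted p = 0.00195). Both calls held in all 21 other settings, and without luminal replicate 2, the highest array, the log2 differences were -1.31 and -0.95. Without background correction they were -0.51 and -0.42. Lgr5+ minus Lgr5- basal gave -0.36 (adjusted p = 0.57).

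Cdkn2c, the gene of the Ink4 inhibitor p18, gave different patterns on its 2 probes. Probe ILMN_1228366 had 7.95, 8.2 and 7.85 in Lgr5+ basal cells, 8.58, 8.17 and 7.88 in Lgr5- basal cells and 8.09, 8.32 and 8.04 in luminal cells, and all groups overlapped. Probe ILMN_1215651 had 5.11, 4.96 and 5.49 in Lgr5+ basal cells, 5.72, 6.29 and 5.96 in Lgr5- basal cells and 6.1, 6.24 and 6.13 in luminal cells. Lgr5+ basal arrays were the lowest there, and 1 of the 3 detected it. This probe was 1.95-fold lower in Lgr5+ basal than in luminal cells (log2 difference -0.97, adjusted p = 0.00233), whereas ILMN_1228366 had a log2 difference of -0.15 (adjusted p = 0.579). Without background correction ILMN_1215651 differed by -0.27 (adjusted p = 0.0226). Between the basal groups ILMN_1215651 differed by -0.8 (SE 0.201, adjusted p = 0.103), by -0.22 without background correction, and by -0.95 (adjusted p = 0.0237) without Lgr5+ basal replicate 3.

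Genes around the set were counted in 6 lists of the pathway, with the brightest probe per gene. Between the basal groups none of their genes passed: of 5 tested G1/S partners, 10 pocket proteins and E2F factors, 8 turnover factors, 10 genes of p53 and its targets, 14 transcriptional regulators and 16 genes of cycling cells, 0 were called higher or lower. Medians lay from -0.17 to 0.03 in the first 5 lists. The median of the cycling list was -0.54, with 1 of 16 genes positive and 5 of 16 at an unadjusted p under 0.05. Such p-values were common among all 17712 tested probes of this comparison. By limma, the unadjusted p of 0.0372 (Cdkn1b ILMN_2638428) had rank 2270, and that of 0.0635 (Ccnd3 ILMN_1246473) rank 3119. The 5 of 16 was not tested against that share, nor was the dependence of the 16 genes on each other. The array held 18 genes of the cycling list, among them Bub1 and Ccnb2, which were not tested. Over all 18 the mean level was 7.41, 7.65 and 7.8 on Lgr5+ basal arrays, 8.25, 8.12 and 7.87 on Lgr5- basal arrays and 8.07, 7.92 and 7.42 on luminal arrays. The part of this difference in the lower Ccnd2 level was not tested.

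**Figure D5:**
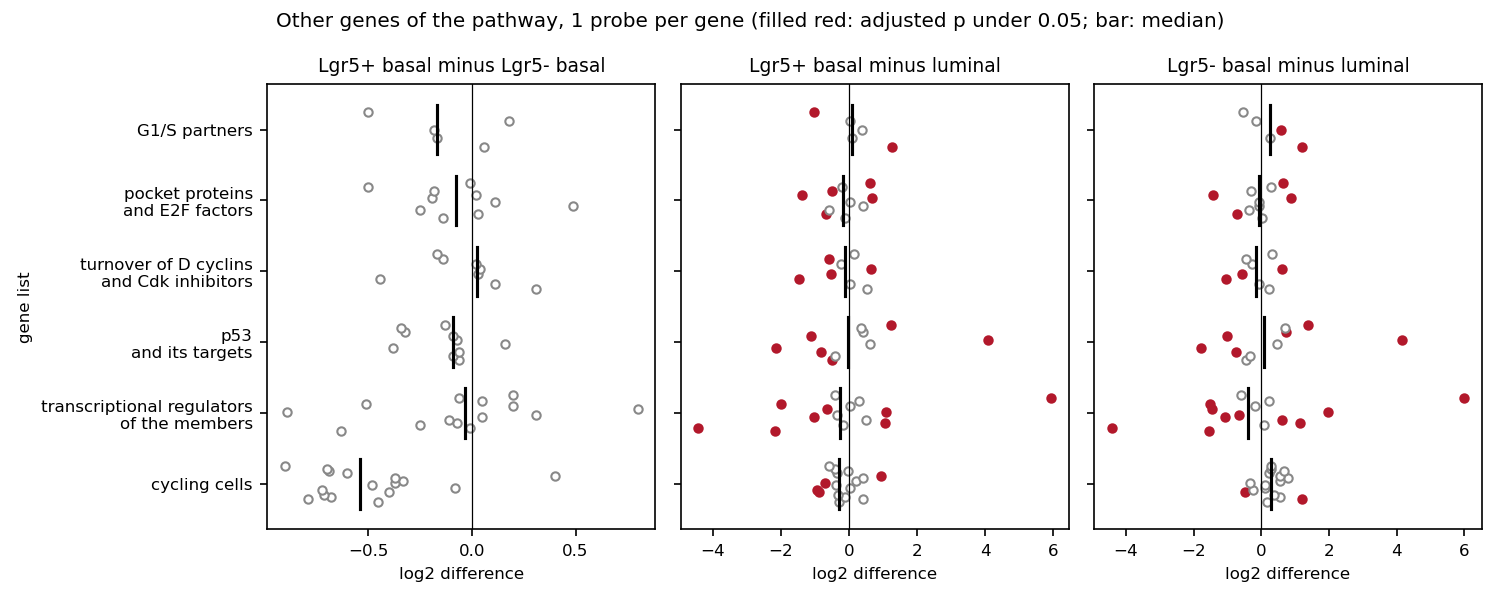
Log2 differences (horizontal axis) of the tested genes in 6 pathway lists (rows) for the 3 comparisons; filled red points passed an adjusted p of 0.05 and the bar is the list's median. No gene passed between the basal groups, where the cycling list had a median of -0.54.

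Against luminal cells, genes of the lists passed in both directions. Their counts stand beside 48.0% of all tested probes called for Lgr5+ basal cells and 42.6% for Lgr5- basal cells. Of 10 pocket proteins and E2F factors, 2 rose and 3 fell in Lgr5+ basal cells, and Rb1, which codes for the substrate of Cdk4 and Cdk6, fell by 1.39 on the log2 scale (limma adjusted p = 9.57e-05). Rb1 likewise fell by 1.42 in Lgr5- basal cells (adjusted p = 8.52e-05), where 2 genes of the list rose and 2 fell. E2f6, an E2F that represses, rose by 0.69 in Lgr5+ and 0.88 in Lgr5- basal cells (adjusted p = 0.0169 and 0.00507). Ccne1, cyclin E1, rose by 1.26 in Lgr5+ and 1.2 in Lgr5- basal cells (adjusted p = 0.00701 and 0.0102). It was detected on 1 of 3 luminal arrays, so these sizes are uncertain. Of 5 tested G1/S partners 1 other fell in Lgr5+ basal cells, Mnat1 of the Cdk-activating kinase (-1.04, adjusted p = 0.00265). In Lgr5- basal cells the other one called was Cdc25a, which rose (0.57, adjusted p = 0.0424).

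Of 8 turnover factors, 1 rose and 3 fell in Lgr5+ basal cells, and 1 rose and 2 fell in Lgr5- basal cells. Fbxo31, an F-box protein, fell by 1.48 in Lgr5+ and 1.05 in Lgr5- basal cells (limma adjusted p = 0.000177 and 0.00207). Fbxw7, the F-box protein that targets cyclin E, rose by 0.64 in Lgr5+ and 0.6 in Lgr5- basal cells (adjusted p = 0.015 and 0.0218). Of 10 genes of p53 and its targets, 2 rose and 4 fell in Lgr5+ basal cells, and 3 rose and 3 fell in Lgr5- basal cells. Trp53, the gene of p53, rose by 1.24 in Lgr5+ and 1.37 in Lgr5- basal cells (adjusted p = 0.00105 and 0.000547), and Phlda3 by 4.08 and 4.15. Gadd45a, a stress-response target, fell by 2.15 in Lgr5+ and by 1.77 in Lgr5- basal cells (adjusted p = 1.34e-06 and 6.01e-06), the opposite direction to Cdkn1a. Plk2, another listed target, also fell, by 1.11 in Lgr5+ and 1.02 in Lgr5- basal cells (adjusted p = 0.00034 and 0.000653).

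Of 14 tested regulators of the set, 3 rose and 5 fell in Lgr5+ basal cells, and 4 rose and 6 fell in Lgr5- basal cells. Trp63, the gene of the basal factor p63, rose by 5.94 and 6 (limma adjusted p = 6.88e-07 and 6.36e-07), and Elf5, a factor of the luminal progenitor and alveolar lineage, had log2 differences of -4.43 and -4.42 (adjusted p = 1.63e-07 and 1.62e-07). Bmi1, a Polycomb protein, fell by 2.17 in Lgr5+ and 1.54 in Lgr5- basal cells (adjusted p = 0.000131 and 0.00156). It was detected on 1 of 3 Lgr5+ basal arrays, so the size there is uncertain. Myc rose by 1.09 in Lgr5+ and 1.98 in Lgr5- basal cells (adjusted p = 0.00571 and 0.000109). Among 16 cycling genes 1 rose and 3 fell in Lgr5+ basal cells, with Pcna, the DNA polymerase clamp, at 0.94 and Mcm2, of the replicative helicase, at -0.87 (adjusted p = 0.0285 and 0.00172). In Lgr5- basal cells 1 rose and 1 fell, Ccnb1 (1.2, adjusted p = 0.00877) and Mcm2 (-0.47, adjusted p = 0.0489).

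The genes whose levels over the 9 arrays were most like those of Ccnd2 probe ILMN_2700168, by the root mean square difference of centred log2 values, were Popdc2 (0.337), Fmod (0.366) and Slit2 (0.368). Popdc2, a membrane protein, averaged 9.02 in Lgr5+ basal cells, 9.75 in Lgr5- basal cells and 4.58 in luminal cells. Fmod, the proteoglycan fibromodulin, averaged 8.9, 9.68 and 4.76, and Slit2, a secreted ligand of Robo receptors, 8.82, 9.66 and 4.66 in the same groups. The Ccnd2 probe averaged 9, 10.26 and 4.74. All of these luminal means lay below the lowest detected signal of the luminal arrays (5.38 to 5.6). The likeness thus rests in part on a shared background level in luminal cells.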

How the data were processed

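Per the labels, total RNA of sorted cells (up to 125 ng) was hybridized to Illumina MouseWG-6 BeadChips. GenomeStudio and limma were used per the submitters' processing notes, with both versions not given in the sources used here. A deposited raw table held, per the file headers, an intensity per probe and array and a detection fraction, which rose with intensity and was read as 1 minus the detection p. Another deposited table held the authors' normalized log2 values, which were tested here and differed by at most 0.0284 from normexp background correction and quantile normalization of the raw intensities. The authors set aside 26391 probes and kept 18890.

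Probes with detection above 0.99 on at least 3 arrays were tested with limma 3.58.1 (R 4.3.3) on all 9 arrays, two-sided, with Benjamini-Hochberg adjustment over 17712 probes and a threshold of 0.05. The script was tested on simulated data. Folds against a group at background are lower bounds. Precision is limited by 3 arrays per group. The labels do not say how many animals a pool held, and p-values therefore cover only variation among pools. Figures were drawn with matplotlib 3.10.9.

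The members, lists and motifs were chosen with earlier results of these data known, and the motif spelling after the sequences were read, as the second of 2 definitions tried for the p53 element. All tested probes of the set are named. Genes named from the pathway lists had passed, at most 4 per list and comparison, and the 3 most like Ccnd2 are named too. The named genes were not in every case those with the smallest p. Stat5a, for example, is not described above, although it passed for Lgr5+ basal minus luminal (-2.01, limma adjusted p = 4.07e-05). The main fit held the groups alone and did not model the pool. Pool numbers were taken as a pairing, since the labels give a shared pool, only for differences within pools and the fit with pool as a replicate block. Residuals of arrays of the same pool correlated with r of 0.0829 to 0.403, and of different pools with -0.294 to 0.0423. Alternatives covered background correction, normalization, the probe filter, the variance prior, the probe per gene, the arrays fitted, BeadChip and pool. The files name no genome build, so no probe coordinates are given. Protein sequences were not used here.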

Additional observations from a re-analysis of the deposited data

How the results depend on the processing

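Over the 3 comparisons and all alternatives, calls on single probes changed mostly for Ccnd2 between the basal groups and for Cdkn1a against luminal cells. The count of probes called between the basal groups, 171, was 917 on BeadChip 1 alone and 92 with the 6 basal arrays alone, and 48 to 1292 without single arrays (56, 65 and 1292 without Lgr5+ basal replicates 1, 2 and 3, and 48, 63 and 107 without Lgr5- basal replicates 1, 2 and 3). Of the set, the 1 probe called became 2 without background correction, with median centring or on BeadChip 1 alone, 0 without the filter, with 1 probe per gene or with the 6 basal arrays, and 0 to 4 without single arrays. The 2 stood beside 229 probes in all without background correction and 917 on BeadChip 1 alone. The 4 came from the fit without Lgr5+ basal replicate 3, beside 1292 in all. With 1 probe per gene, 6 and 5 members were called against luminal cells, for Lgr5+ and Lgr5- basal cells, in place of 13 and 11 probes. Counts of the set under these settings were not tested against the share of all probes or genes called there. Ccnd2 ILMN_2700168 had adjusted p = 0.0715 without the filter and 0.0773 with the 6 basal arrays, and ILMN_2700166 passed without background correction (-1.17, 0.0124) and with median centring (-1.27, 0.0475). The Cdkn1a calls of Lgr5- basal minus luminal were lost without the filter (adjusted p of 0.08 to 0.101). With the pool as a replicate block, 183, 9226 and 8206 probes passed in the 3 comparisons and 0 of 54 values of the set changed their call. Some values changed sign. For Lgr5+ basal minus luminal, Cdk4 ILMN_2646203 gave 0.01 with median centring and -0.46 to 0.56 without single arrays. For Lgr5- basal minus luminal it gave -0.14 on BeadChip 1 alone and -0.27 to 0.75 without single arrays, Cdkn2c ILMN_1228366 gave -0.12 to 0.23, Ccnd3 ILMN_1246473 -0.31 to 0.06 and Ccnd3 ILMN_3131063 -0.09 to 0.23. For Lgr5+ minus Lgr5- basal, Ccnd1 ILMN_2669793 gave -0.38 to 0.01, Cdkn1a ILMN_2846776 -0.2 to 0.59 and Cdkn1a ILMN_2634083 -0.07 to 0.52. The causes were not tested. Probes near background, such as those of Cdkn1b, Cdkn2b and the luminal Ccnd2 values, carry uncertain sizes.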

Other observations

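Without luminal replicate 2, the array with the highest basal marker level among luminal arrays, 12 of 18 probes of the set were called for Lgr5+ basal minus luminal, all among the 13 called with it, beside 7874 probes in all. For Lgr5- basal minus luminal 9 were called, beside 7038 in all. Of the 11 called with that array 8 remained, the 3 Cdkn1a probes lost their call, and Cdk4 ILMN_2646203 gained it (0.75, limma adjusted p = 0.0352). Without Lgr5+ basal replicate 2, which had the highest endothelial marker level, 11 and 10 probes of the set were called, beside 7190 and 7164 in all, and each was among those called with it. Erythroid markers, 2 haemoglobin genes, averaged 8.5, 8.75 and 5.34 on Lgr5+ basal arrays, 6.7, 7.42 and 5.81 on Lgr5- basal arrays and 7.68, 8.88 and 7.3 on luminal arrays, and were lowest in replicate 3 of each group, as Cdkn1a probe ILMN_2634083 was. Whether the levels are related was not tested.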
